A study of Mus musculus with 23 samples.

Results

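Heat shock chaperones are proteins that bind unfolded or partly folded proteins and help them fold, and they are a classic readout of protein damage in the liver. In the cytosol, members of the HSP70 family bind exposed hydrophobic stretches and pass clients to HSP90, J-domain proteins deliver clients and trigger ATP hydrolysis by HSP70, HSP110 proteins exchange its nucleotide, and small heat shock proteins hold unfolded clients without using ATP. Many of these genes carry heat shock elements, runs of inverted GAA units that the trimeric transcription factor HSF1 binds once it is freed from chaperones.

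The 10 genes described here were given as a list: Hsp90aa1, Hsp90ab1, Hspb1, Hspa4l, Hspa8, Hspa1a, Hspa1b, Hsph1, Dnajb1 and Chordc1. A probe was taken for a gene where the probe's systematic name matched the mouse symbol in a gene table. Of the 10 genes, 9 had a matched probe and were tested among the 19899 genes of the series, and Hspa1b had no matched probe. Of these 19899, 12927 had a symbol. The other 6972 were systematic names without a matched symbol, each counted as a gene in every share over all genes.

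Livers came from female mice of the B6C3F1 strain, a hybrid used in cancer bioassays, purchased at 5 to 6 weeks of age and acclimatised for at least 7 days before the study. Furan, a volatile compound formed in heated food that liver enzymes oxidise to a reactive dialdehyde, was dissolved in corn oil and given by oral gavage for 21 days, and livers were taken 4 h after the last dose. Corn oil alone was given to 5 control mice, and furan to 4 mice in the 1 mg/kg group, 5 in the 2 mg/kg group, 4 in the 4 mg/kg group and 5 in the 8 mg/kg group, with 1 array per mouse. Each array held liver RNA in Cy5 against a universal mouse reference RNA in Cy3 with no dye swap, so a value is the log2 ratio of liver to reference RNA for 1 probe, and values of different probes are not compared.

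An array had 22011 to 30120 probes above the background mark, and the median correlation between arrays was 0.976 within dose groups and 0.974 between them. All 10 hepatocyte markers were well above background on all 23 arrays, at log2 ratios of 4.24 to 10.27 over the reference. Averaged over 6 of 15 pancreas markers that were measured, and set against the control mean, 4 arrays stood apart: replicate 1 of the 4 mg/kg group scored 3.75, replicates 1 and 5 of the 2 mg/kg group scored 3.46 and 3.30, and replicate 5 of the 8 mg/kg group scored 2.58, with the next array at 0.41. Neutrophil markers stood at 2.83 in replicate 4 at 2 mg/kg, with the next array at 0.79. The hepatocyte score was 0.58 to 0.98 on the arrays of slide 3 and -0.56 to 0.15 on the other slides. Counts of called chaperone genes at 8 mg/kg and for the slope are also given without these 4 arrays and without slide 3. Of the cell type markers, the 7 endothelial ones held the single call at 8 mg/kg, lower, and their scores spanned -0.62 to 0.14 at 8 mg/kg and -0.16 to 0.34 in control livers. In whole liver RNA, a change in the number of cells of a type cannot be told apart from a change in RNA per cell.

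Promoter windows from RefSeq, build GRCm38.p6, were read for the genes of the list to show which of them carry heat shock element letters close to the annotated start. Each window runs from 250 bases before the start to 50 bases after it, 300 bases in all, and comes from the C57BL/6J reference and not from the B6C3F1 mice. Windows were available for 7 of the 10 genes, 9 windows in all. Hsp90aa1, Hsp90ab1 and Hspa8 had no window and were not searched. The letters searched were the 2-unit runs GAANNTTC and TTCNNGAA, each its own reverse complement, and a 3-unit run, GAANNTTC followed directly by NNGAA, on both strands, with overlapping matches counted. At least 1 of the 2-unit runs was present in 6 of the 9 windows, from 5 genes, and in 15.1% of all 32817 RefSeq windows. The 3-unit run was present in 3 of the 9 windows, from the 2 genes Chordc1 and Hsph1, and in 0.603% of all windows. The 9 windows are not separate observations, since those of Hsph1 overlap and those of Hspa1a and Hspa1b are near-identical. The windows are shown 5′ to 3′ on the gene's strand with matches in capitals, for the 5 genes with a match. Chordc1 is at chr9:18292017-18292316 on the plus strand, Hsph1 at chr5:149636266-149636565 on the minus strand, Hspb1 at chr5:135887669-135887968 on the plus strand, Hspa1a at chr17:34972107-34972406 on the minus strand and Hspa1b at chr17:34959189-34959488 on the minus strand.
Chordc1: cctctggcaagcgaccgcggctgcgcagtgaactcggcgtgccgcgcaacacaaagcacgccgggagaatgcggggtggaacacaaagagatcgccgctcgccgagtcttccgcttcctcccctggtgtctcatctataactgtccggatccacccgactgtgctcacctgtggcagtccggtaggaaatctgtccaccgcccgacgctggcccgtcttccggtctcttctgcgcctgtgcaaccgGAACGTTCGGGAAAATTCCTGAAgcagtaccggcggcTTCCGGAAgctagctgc
Hsph1: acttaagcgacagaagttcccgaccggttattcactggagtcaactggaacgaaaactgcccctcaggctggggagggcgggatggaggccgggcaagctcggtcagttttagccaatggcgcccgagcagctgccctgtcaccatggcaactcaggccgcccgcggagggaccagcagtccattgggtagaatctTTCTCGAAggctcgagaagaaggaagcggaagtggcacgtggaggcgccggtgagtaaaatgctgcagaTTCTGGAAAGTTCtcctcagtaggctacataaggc
Hspb1: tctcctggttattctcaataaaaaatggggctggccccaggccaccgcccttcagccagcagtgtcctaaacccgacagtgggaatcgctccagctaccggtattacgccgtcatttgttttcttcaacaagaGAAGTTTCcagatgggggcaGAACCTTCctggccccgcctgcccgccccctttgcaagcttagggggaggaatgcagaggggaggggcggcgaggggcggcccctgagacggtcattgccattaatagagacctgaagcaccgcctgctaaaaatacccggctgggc
Hspa1a: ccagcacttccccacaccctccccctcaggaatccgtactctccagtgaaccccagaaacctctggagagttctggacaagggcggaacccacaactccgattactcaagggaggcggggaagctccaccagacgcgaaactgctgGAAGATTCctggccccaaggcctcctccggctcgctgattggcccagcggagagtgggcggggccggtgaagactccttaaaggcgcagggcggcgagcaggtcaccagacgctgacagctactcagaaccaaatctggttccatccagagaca
Hspa1b: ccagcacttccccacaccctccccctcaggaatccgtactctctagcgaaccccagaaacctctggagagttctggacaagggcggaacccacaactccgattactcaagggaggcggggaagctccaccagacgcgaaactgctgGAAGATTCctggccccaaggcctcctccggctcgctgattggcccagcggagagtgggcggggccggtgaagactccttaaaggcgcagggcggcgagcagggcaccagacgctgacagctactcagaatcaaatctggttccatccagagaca

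In Chordc1, 4 of the 2-unit matches and all 3 of the 3-unit matches overlap in 1 run that begins 4 bases before the annotated start. In Hspb1 the 2 matches begin 117 and 97 bases before the start. Hspa1a and Hspa1b each hold 1 match beginning 104 bases before the start, and 296 of their 300 bases are the same. Hsph1 has 2 annotated starts whose windows overlap and hold the same letters. Hspa4l and both windows of Dnajb1 held none of these letters. A match is a description of letters in a window and not evidence of binding.

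**Figure D1:**
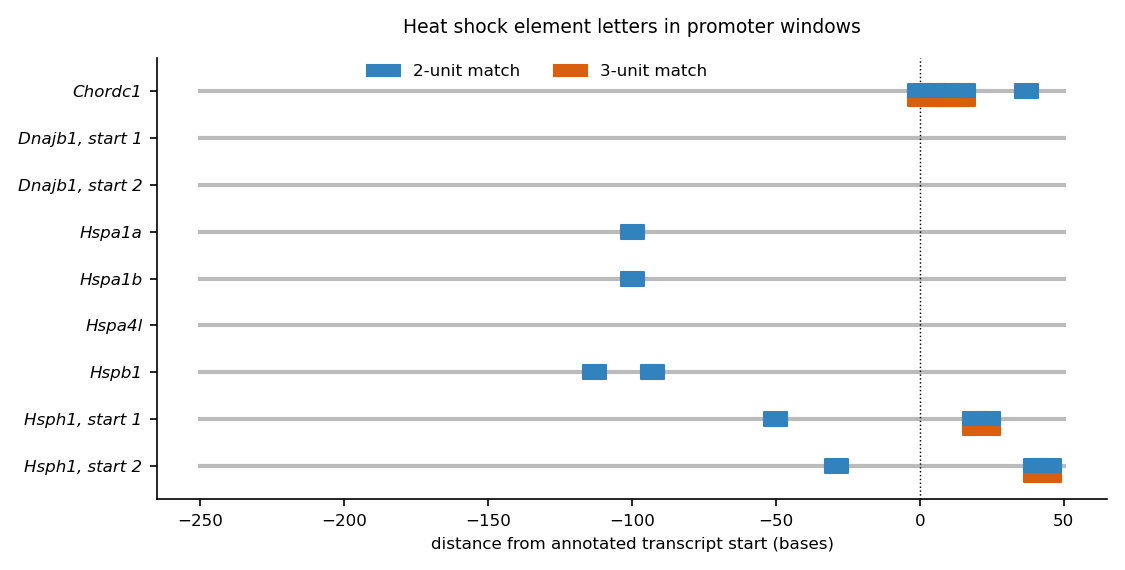
Positions of heat shock element letters in the 9 promoter windows, with the distance from the annotated transcript start in bases on the horizontal axis. Blue boxes are 2-unit matches and orange boxes 3-unit matches; the 3-unit matches lie in Chordc1 and Hsph1, and Hspa4l and Dnajb1 have no box.

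At the highest dose, 8 of the 9 measured chaperone transcripts were higher than in controls and none was lower (limma, adjusted p under 0.05 over all genes). Over all 19899 genes, 8.01% were called at this dose, 4.25% higher. The list was chosen with earlier results of these data known, so the shares over all genes are set beside it as a description and not as a test. The called folds ran from 1.30 for Hsp90ab1 to 1.92 for Hsp90aa1, and the members' median log2 difference was 0.56, against -0.03 over all genes. Hspa1a passed the filter on dim probes only through the 8 mg/kg group, and without it 7 of 8 were called, with the same median of 0.56. The exception was Dnajb1. In 8 of the 9 genes, or 7 of 8 without Hspa1a, all 5 arrays at 8 mg/kg lay above all 5 control arrays, which held for 4.44% of all genes. The count at 8 mg/kg was 8 without the 4 arrays rich in pancreatic transcripts and 8 without slide 3. Over all genes, 1240 and 1131 were called in these fits, against 1593 in the main fit. Each of the 9 differences was positive on all 4 slides that held both groups. These are the arrays of the test itself, and the share of all genes with this pattern was not computed, so it is a description. Within-slide values were 0.60 to 1.24 for Hsp90aa1 and 0.07 to 0.44 for Dnajb1. With slide as a block 8 were called (11.7% of all genes). Hspa1a is among the 8 genes of this count and of the counts without the 4 arrays and without slide 3. Its part in these counts and in the positive differences is not read as evidence of a rise.

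**Figure D2:**
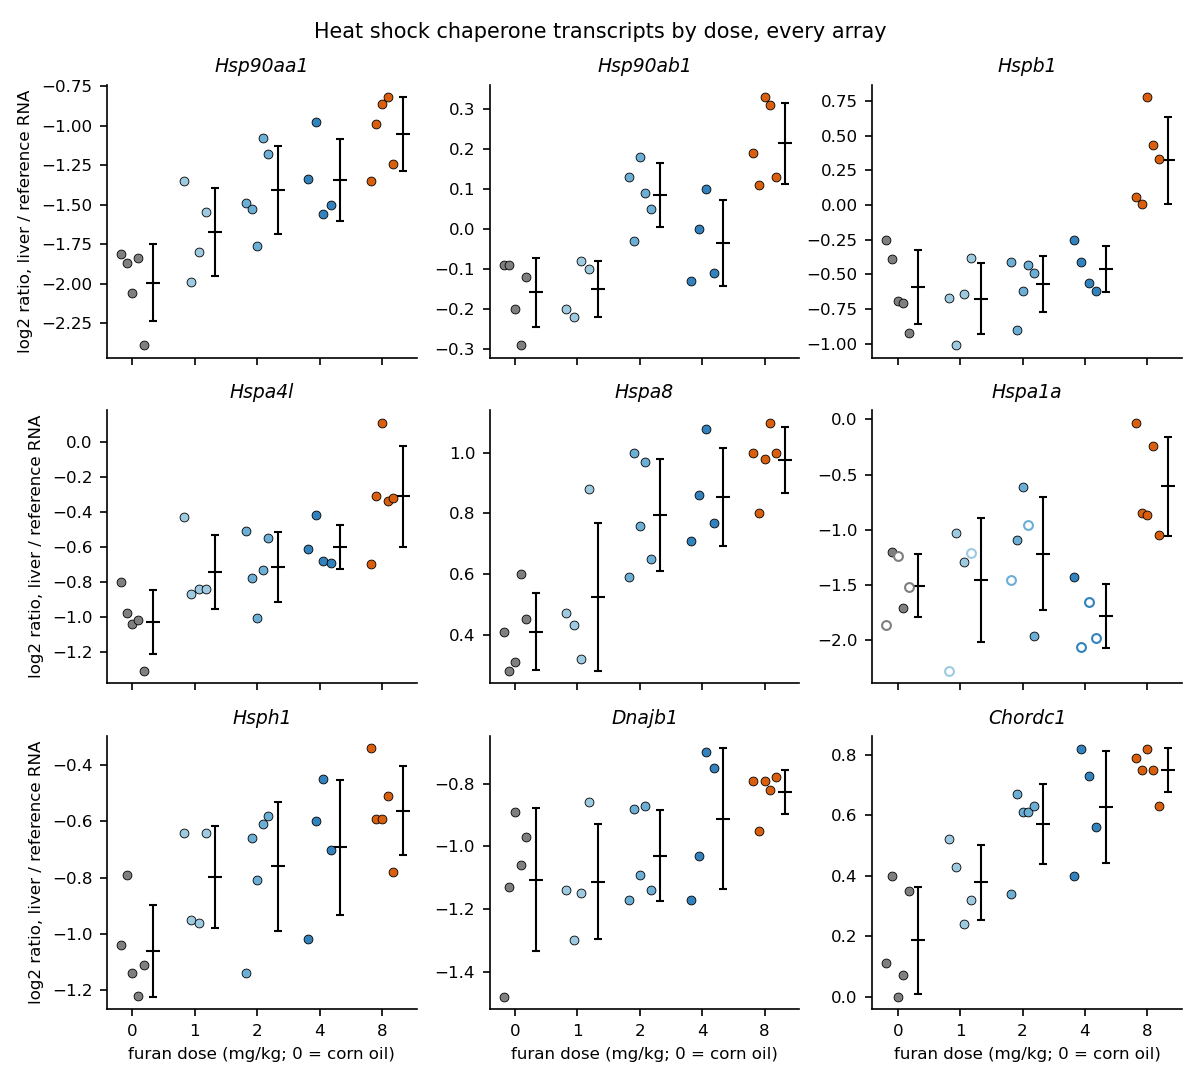
Log2 ratio of liver to reference RNA for the 9 measured chaperone genes on every array, by furan dose in mg/kg, with the group mean and SD beside the points. Open points are arrays on which the probe was not well above background, which occur for Hspa1a only; for Hspb1 the 5 arrays at 8 mg/kg, 0.01 to 0.78, lie above all others.

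The HSP90 group has a stress-inducible cytosolic form, Hsp90aa1, a constitutive one, Hsp90ab1, and Chordc1, a CHORD-domain cochaperone that binds HSP90. Hsp90aa1 stood at log2 ratios of -1.35, -0.99, -0.86, -0.82 and -1.24 at 8 mg/kg, against -1.81, -1.87, -2.06, -1.84 and -2.39 in controls. The 2 groups did not overlap, and the difference was 0.94 ± 0.16 (SE), 1.92-fold, with an adjusted p of 9e-04. At the lower doses Hsp90aa1 was -1.35, -1.99, -1.80 and -1.55 in the 1 mg/kg arrays, -1.49, -1.53, -1.76, -1.08 and -1.18 in the 2 mg/kg arrays, and -1.34, -0.98, -1.56 and -1.50 in the 4 mg/kg arrays. All arrays at 2 and 4 mg/kg already lay above every control array, while 1 mg/kg overlapped the controls. The group means climbed with dose without a reversal: -2.00 ± 0.24 in controls, -1.67 ± 0.28 in the 1 mg/kg arrays, -1.41 ± 0.28 in the 2 mg/kg arrays, -1.35 ± 0.26 in the 4 mg/kg arrays and -1.05 ± 0.23 in the 8 mg/kg arrays (SD, n = 4 or 5). Of its neighbouring means, 1 mg/kg and control, and 8 and 4 mg/kg, lay apart by more than the larger SD of the pair, and the other neighbours did not.

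Hsp90ab1 showed the smallest scatter of the 9, with a residual SD of 0.09 on the log2 scale, a value below which only 3.5% of all genes fell. It was 0.19, 0.11, 0.33, 0.31 and 0.13 at 8 mg/kg, against -0.09, -0.09, -0.20, -0.29 and -0.12 in controls. Every array at 8 mg/kg was above every control, and the difference of 0.38 ± 0.07 was 1.30-fold with an adjusted p of 0.0017. The lower doses gave -0.20, -0.22, -0.08 and -0.10 in the 1 mg/kg arrays, 0.13, -0.03, 0.18, 0.09 and 0.05 in the 2 mg/kg arrays, and -0.13, 0.00, 0.10 and -0.11 in the 4 mg/kg arrays. Its means did not follow the dose strictly, since 4 mg/kg lay between 1 and 2 mg/kg, and the 2 mg/kg arrays lay wholly above the controls while the 4 mg/kg arrays did not.

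Chordc1 was 0.79, 0.75, 0.82, 0.75 and 0.63 at 8 mg/kg, against 0.11, 0.40, 0.00, 0.07 and 0.35 in controls. The arrays at 8 mg/kg were tightly grouped and did not overlap the controls, and the difference was 0.56 ± 0.09, 1.47-fold, with an adjusted p of 9e-04. At the lower doses it was 0.52, 0.43, 0.24 and 0.32 in the 1 mg/kg arrays, 0.34, 0.67, 0.61, 0.61 and 0.63 in the 2 mg/kg arrays, and 0.40, 0.82, 0.73 and 0.56 in the 4 mg/kg arrays. The 4 mg/kg arrays lay just above the highest control and the 1 and 2 mg/kg arrays overlapped the controls. Its means went up at every dose, and only the steps at 1 mg/kg from control and at 2 mg/kg from 1 mg/kg were larger than the larger SD of the pair.

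The HSP70 group covers Hspa8, the constitutive cytosolic HSP70, and the stress-inducible pair Hspa1a and Hspa1b. The probe of Hspa8 with the brightest signal gave 1.00, 0.80, 0.98, 1.10 and 1.00 at 8 mg/kg, against 0.41, 0.28, 0.31, 0.60 and 0.45 in controls. These groups did not overlap, and Hspa8 was higher by 0.56 ± 0.11, 1.48-fold, with an adjusted p of 0.00258. It was 0.47, 0.43, 0.32 and 0.88 in the 1 mg/kg arrays, 0.59, 1.00, 0.76, 0.97 and 0.65 in the 2 mg/kg arrays, and 0.71, 0.86, 1.08 and 0.77 in the 4 mg/kg arrays. At 4 mg/kg all arrays were above the controls, and at 2 mg/kg the lowest array fell just under the highest control. The means climbed at each dose, with only the step between 2 and 1 mg/kg larger than the larger SD. In a fit over 25576 probes, a second Hspa8 probe rose by 0.61 ± 0.13 with an adjusted p of 0.00613. The third differed by 0.50 ± 0.21 with an adjusted p of 0.171 and was not called.

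Hspa1a had the widest scatter of the 9, with a residual SD of 0.43, and the only probe that was not well above background on every array. It passed that mark on 2 of 5 arrays in controls, 2 of 4 at 1 mg/kg, 3 of 5 at 2 mg/kg, 1 of 4 at 4 mg/kg and 5 of 5 at 8 mg/kg. The values were -0.03, -0.85, -0.87, -0.24 and -1.05 at 8 mg/kg, against -1.86, -1.20, -1.24, -1.71 and -1.52 in controls. The 2 groups did not overlap, and the fitted difference was 0.89 ± 0.26 with an adjusted p of 0.0379. Since the probe entered the test only through the 8 mg/kg group and 3 of 5 control arrays were not well above background, no fold is given and the call is not read as evidence of a rise. At the lower doses Hspa1a was -2.28, -1.03, -1.29 and -1.21 in the 1 mg/kg arrays, -1.46, -1.09, -0.61, -0.96 and -1.96 in the 2 mg/kg arrays, and -1.43, -2.06, -1.66 and -1.98 in the 4 mg/kg arrays. All 3 of these groups overlapped the controls, and the 4 mg/kg mean, -1.78 ± 0.29, was the lowest of the 5. The call is the least firm of the 8. The difference was 0.22 with an adjusted p of 0.484 with normexp background correction, 0.23 with 0.491 on median signals without correction, and 0.27 with 0.341 in the deposited value table. With no filter on dim probes it was 0.89 with an adjusted p of 0.0834. It also lost its call without control replicate 1, 4 or 5 or without replicate 1 or 4 at 8 mg/kg, at differences of 0.75 to 0.89 and adjusted p of 0.0675 to 0.101. The near-identical copy Hspa1b had no probe of its own, and whether the Hspa1a probe takes up its transcript was not tested.

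The HSP110 nucleotide exchange factors are represented by Hsph1 and Hspa4l. Hspa4l was -0.70, -0.31, 0.11, -0.34 and -0.32 at 8 mg/kg, against -0.80, -0.98, -1.04, -1.02 and -1.31 in controls. The groups did not overlap, and Hspa4l was higher by 0.72 ± 0.13, 1.64-fold, with an adjusted p of 0.00204. It was -0.43, -0.87, -0.84 and -0.84 in the 1 mg/kg arrays, -0.51, -0.78, -1.01, -0.73 and -0.55 in the 2 mg/kg arrays, and -0.61, -0.42, -0.68 and -0.69 in the 4 mg/kg arrays. The 4 mg/kg arrays lay above every control and the 1 and 2 mg/kg arrays did not, although the means climbed at every dose. Its highest arrays at 8 and 1 mg/kg were both on slide 3, where hepatocyte scores were high, and without slide 3 the difference at 8 mg/kg was 0.62 with an adjusted p of 0.00743. Of the steps between neighbouring means, only that between 1 mg/kg and control was larger than the larger SD.

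Hsph1 was -0.34, -0.59, -0.59, -0.51 and -0.78 at 8 mg/kg, against -1.04, -0.79, -1.14, -1.22 and -1.11 in controls. The lowest array at 8 mg/kg lay just above the highest control, and the difference of 0.50 ± 0.12 was 1.41-fold with an adjusted p of 0.0159. At the lower doses it was -0.64, -0.95, -0.96 and -0.64 in the 1 mg/kg arrays, -1.14, -0.66, -0.81, -0.61 and -0.58 in the 2 mg/kg arrays, and -1.02, -0.60, -0.45 and -0.70 in the 4 mg/kg arrays. All 3 of these groups overlapped the controls while their means, -0.80 ± 0.18, -0.76 ± 0.23 and -0.69 ± 0.24, climbed slowly. A second Hsph1 probe gave a difference of 0.65 ± 0.10 at 8 mg/kg with an adjusted p of 0.000658 in the fit over probes.

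Hspb1, the small heat shock protein that also binds actin filaments, stood apart from controls at the top dose only. It was 0.06, 0.01, 0.78, 0.43 and 0.33 at 8 mg/kg, against -0.25, -0.39, -0.69, -0.71 and -0.92 in controls. All 5 arrays at 8 mg/kg lay above every other array of the series, and the difference from control was 0.92 ± 0.15, 1.89-fold, with an adjusted p of 0.000919. It was -0.67, -1.01, -0.64 and -0.38 in the 1 mg/kg arrays, -0.41, -0.90, -0.62, -0.43 and -0.49 in the 2 mg/kg arrays, and -0.25, -0.41, -0.56 and -0.62 in the 4 mg/kg arrays. These 3 groups sat within or close to the control range, and the means were -0.59 ± 0.27 in controls, -0.68 ± 0.26 in the 1 mg/kg arrays, -0.57 ± 0.20 in the 2 mg/kg arrays and -0.46 ± 0.17 in the 4 mg/kg arrays (SD). Its one step larger than the larger SD was that between 8 and 4 mg/kg.

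Dnajb1, the J-domain protein that delivers clients to HSP70, moved least. It was -0.79, -0.95, -0.79, -0.82 and -0.78 at 8 mg/kg, against -1.48, -1.13, -0.89, -1.06 and -0.97 in controls. Replicate 2 at 8 mg/kg fell below the highest control, so the groups overlapped, and the difference of 0.28 ± 0.11, 1.21-fold, had an adjusted p of 0.149. It was -1.14, -1.30, -1.15 and -0.86 in the 1 mg/kg arrays, -1.17, -0.88, -1.09, -0.87 and -1.14 in the 2 mg/kg arrays, and -1.17, -1.03, -0.70 and -0.75 in the 4 mg/kg arrays. No pair of neighbouring Dnajb1 means lay apart by more than the larger SD. With normexp correction the difference at 8 mg/kg was 0.41 with an adjusted p of 0.0368, and with median signals left uncorrected it was 0.40 with an adjusted p of 0.0389.

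**Figure D3:**
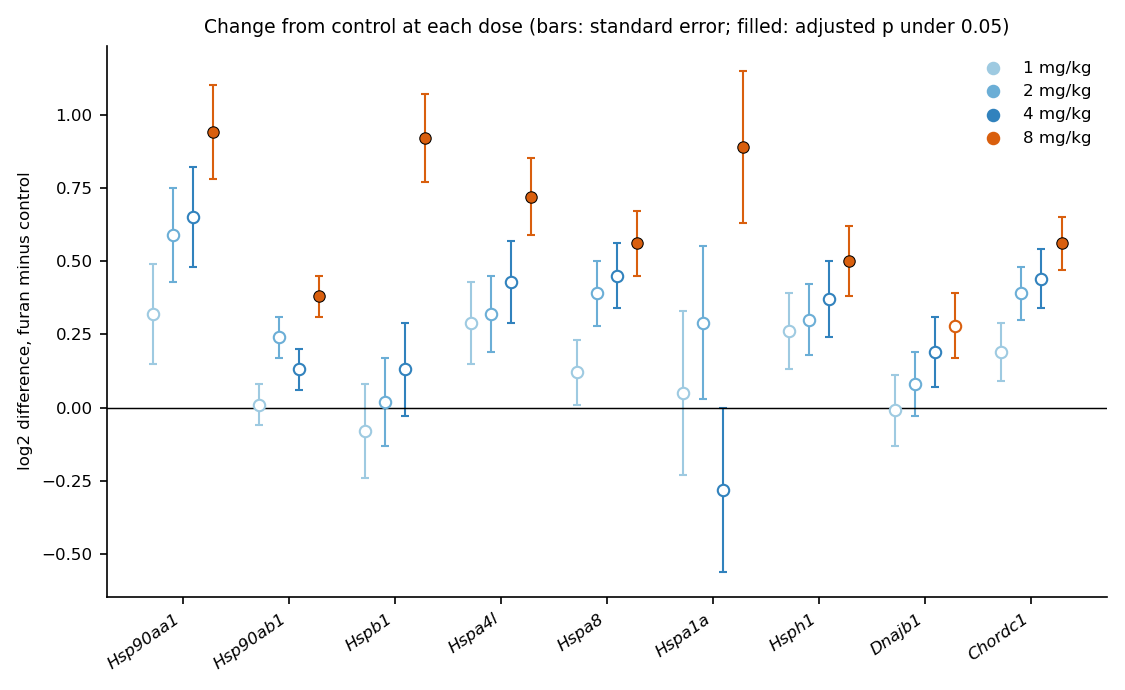
Log2 difference from control at 1, 2, 4 and 8 mg/kg for the 9 measured genes, with the standard error as bars; filled points passed an adjusted p of 0.05. The filled points are the 8 at 8 mg/kg, with Dnajb1 open at 0.28, and Hspa1a at 4 mg/kg is below zero at -0.28.

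Below the top dose no single chaperone gene passed the test. At 4 mg/kg 0 of 9 were called, as were 0.0804% of all genes (16 genes). At an unadjusted p under 0.05 there were 5 of 9, and 8.90% of all genes. The nearest to the threshold was Chordc1, at 0.44 ± 0.10 and 1.36-fold with an adjusted p of 0.0972. With slide as a block Chordc1 differed by 0.50 ± 0.09 with an adjusted p of 0.0315 (0.322% of all genes called), and with slide as a random block Hsp90aa1 (adjusted p = 0.0454), Hspa8 (0.0431) and Chordc1 (0.0227) were called (0.613% of all genes). Hsp90aa1 differed by 0.65 ± 0.17, Hspa8 by 0.45 ± 0.11, Hspa4l by 0.43 ± 0.14 and Hsph1 by 0.37 ± 0.13, all with adjusted p above the threshold. The members' median difference was 0.37, against -0.02 over all genes. In 4 genes, Hsp90aa1, Hspa4l, Hspa8 and Chordc1, the 4 mg/kg arrays lay wholly above the controls, and 1.51% of all genes did so.

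At 2 mg/kg 0 of 9 were called, with 0.0101% of all genes called (2 genes). At an unadjusted p under 0.05 there were 6 of 9 and 8.66% of all genes. The median difference was 0.30, with Hsp90aa1 at 0.59 ± 0.16 (adjusted p = 0.306), Chordc1 at 0.39 ± 0.09 (0.278), Hspa8 at 0.39 ± 0.11 (0.312) and Hsp90ab1 at 0.24 ± 0.07 (0.32). Hsp90aa1 and Hsp90ab1 lay wholly above the controls, a pattern in 0.844% of all genes. At 1 mg/kg 0 of 9 were called by limma, 0% of all genes were called, and 0 of 9 had an unadjusted p under 0.05, against 3.52% of all genes. The differences there ran from -0.08 to 0.32, with a median of 0.12, and in 0 of 9 genes did the arrays lie wholly above the controls (0.472% of all genes).

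The step between the top doses was tested directly. Of 8 against 4 mg/kg, 0 of 9 genes were called by limma (0.206% of all genes, 41 genes), and 3 of 9 had an unadjusted p under 0.05, against 8.43% of all genes. Hspb1 differed by 0.79 ± 0.16, 1.72-fold, with an adjusted p of 0.0513 that lies beside the threshold. Hspb1 was called without control replicate 1 or 5, without replicate 2 or 4 at 1 mg/kg, or without replicate 2 at 8 mg/kg. Hspb1 had an adjusted p of 0.0629 with slide as a fixed block (0.342% of all genes called) and 0.0269 with slide as a random block (0.603% called). For Hspa1a the 4 mg/kg group was well above background on 1 of 4 arrays, so its fitted value of 1.17 ± 0.28, with an adjusted p of 0.096, is given as a description only. That value was 0.25 with normexp, 0.22 with uncorrected median signals and 0.27 in the deposited value table. Hsp90ab1 differed by 0.25 ± 0.07 with an adjusted p of 0.223. The other 6 genes differed by 0.09 to 0.29.

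A slope over all 5 doses was fitted as a change in log2 ratio per mg/kg. Of the 9 genes, 8 rose with dose, where 10.4% of all genes had a called slope and 5.32% a rising one. The steepest was Hspb1 at 0.122 ± 0.019 per mg/kg (adjusted p = 0.000142), followed by Hsp90aa1 at 0.103 ± 0.019 (0.00104), Hspa4l at 0.079 ± 0.015 (0.00114), Hspa8 at 0.065 ± 0.013 (0.00242), Chordc1 at 0.062 ± 0.012 (0.0016), Hsph1 at 0.052 ± 0.014 (0.0209) and Hsp90ab1 at 0.043 ± 0.009 (0.00242). Dnajb1 reached 0.038 ± 0.012 with an adjusted p of 0.0496, a call lost in 17 of 23 fits that each left out 1 array and in 5 of 13 other alternatives. Hspa1a had a slope of 0.098 ± 0.034 with an adjusted p of 0.0665 and was not called. Without the 4 arrays rich in pancreatic transcripts, and without slide 3, 7 slopes were called, Dnajb1 being the one lost. Over all genes, 1845 and 1668 slopes were called in these fits, against 2068 in the main fit. Hsph1 lost its called slope with scaling between arrays (adjusted p = 0.0656) and without replicate 1 at 8 mg/kg (0.0633). The median slope was 0.065, against -0.003 over all genes. A slope assumes a straight line, and for Hspb1 the rise lay mainly in the last step.

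With dose differences kept in, the 36 pairs of members correlated over the 23 arrays with a median r of 0.57. Measurement scatter of single arrays was not separated from differences between genes in these correlations. With each dose group's mean removed, the 36 pairs of members correlated over the 23 arrays with a median r of 0.12, from -0.71 to 0.74. The closest pairs were Hsp90aa1 with Hspa4l (r = 0.74) and Hsph1 with Chordc1 (r = 0.73). The most opposed pair was Hspa4l with Hspa1a (r = -0.71), and among pairs without Hspa1a it was Hspa4l with Dnajb1 (r = -0.33). All of these points share arrays and the reference RNA, and Hspa1a was below the well above background mark on many of them. Slide was not removed, and over all genes arrays of the same slide correlated with medians of 0.12 to 0.32. The correlations therefore do not show differences between mice alone. Averaged over the 9 genes and set against the control mean, the arrays stood at -0.08 to 0.12 in controls, 0.04 to 0.27 in the 1 mg/kg arrays, 0.19 to 0.43 in the 2 mg/kg arrays, 0.20 to 0.35 in the 4 mg/kg arrays and 0.53 to 0.75 in the 8 mg/kg arrays. Without Hspa1a, an average added after seeing the data, the arrays stood at -0.09 to 0.10 in controls, -0.02 to 0.27, 0.20 to 0.41 and 0.24 to 0.45 in the 1, 2 and 4 mg/kg arrays, and 0.52 to 0.77 in the 8 mg/kg arrays. The 8 mg/kg arrays were separate from all the others on both averages, which are given as a description with no test.

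Among 12918 other named genes, the 8 whose values correlated most with this mean over the 23 arrays were Aen (r = 0.929), Desi2 (0.918), Cdkn1a (0.904), Phlda3 (0.90), Rasl2-9 (0.89), Zmat3 (0.885), Ak6 (0.883) and Tubb4b (0.881). With the average made without Hspa1a, 3 of these 8 genes, Aen, Rasl2-9 and Zmat3, were again among the 8 highest. Which genes fill the list thus depends on Hspa1a. The cut lay among close values, with Zmat3 at 0.893 kept and Tubb4b at 0.892 not kept. All 8 genes still correlated with that average, at r of 0.874 for Cdkn1a to 0.922 for Aen. Within dose groups the correlations of the same genes were lower, from 0.19 for Tubb4b to 0.66 for Rasl2-9. At 8 mg/kg against control, Cdkn1a, a cyclin-dependent kinase inhibitor, differed by 2.79 ± 0.16 on the log2 scale and Rasl2-9 by 0.39 ± 0.08.

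Of 88 other chaperone genes in 8 lists, 78 were measured, and at 8 mg/kg 8 were higher, 3 lower and 67 not called, with a median difference of 0.07. These are 14.1% called and 10.3% higher, beside 8.01% and 4.25% of all genes. The count was 9 without the 4 arrays rich in pancreatic transcripts and 6 without slide 3, where 1240 and 1131 of all genes were called. Among HSP70 and HSP110 relatives 1 of 8 was higher, Hspa4, an HSP110 protein, at 0.37 ± 0.06 (adjusted p = 0.000925), and 1 was lower, Hspa12b, an atypical HSP70 of endothelial cells, at -0.63 ± 0.17 (0.0276). The part of the endothelial scores given above in the Hspa12b value was not tested. With all probes of a gene averaged, Hspa4 was at 0.11 with an adjusted p of 0.575. Of 18 other J-domain proteins 4 rose and 0 fell: Dnajb4 at 0.68 ± 0.13 (adjusted p = 0.00308), Dnaja1, a cytosolic partner of HSP70, at 0.58 ± 0.13 (0.00673), Dnajc2 at 0.42 ± 0.12 (0.0301) and Dnajb14 at 0.25 ± 0.07 (0.026). Among 14 HSP90 paralogs and cochaperones Ahsa1, an activator of the HSP90 ATPase, rose by 0.28 ± 0.07 (0.0192) and Trap1, the mitochondrial HSP90, differed by -0.39 ± 0.11 (0.0336).

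Of 12 HSP70 nucleotide exchange and helper factors Bag3, a cochaperone known for heat inducibility, rose by 0.42 ± 0.12 (adjusted p = 0.0314), and Sil1, an exchange factor of the endoplasmic reticulum, differed by -0.21 ± 0.06 (0.0326). In the 10 chaperonin genes Cct5, a subunit of the cytosolic ring chaperonin, rose by 0.33 ± 0.07 (0.00769) and 0 fell. Among 6 other small heat shock proteins 0 were called, and Hspb6 had the smallest p at -0.32 (adjusted p = 0.346). In the 6 prefoldins 0 were called, with Pfdn1 at 0.29 (adjusted p = 0.186), and among 4 heat shock factors and regulators 0 were called, with Hsbp1 at 0.16 (adjusted p = 0.126). Dnajb4 and Dnaja1 kept their calls under all alternatives that changed the processing or left out 1 array, while the other 9 each lost theirs under at least 1. At 4 mg/kg 0 of the 78 were called by limma, where 0.0804% of all genes were called.

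**Figure D4:**
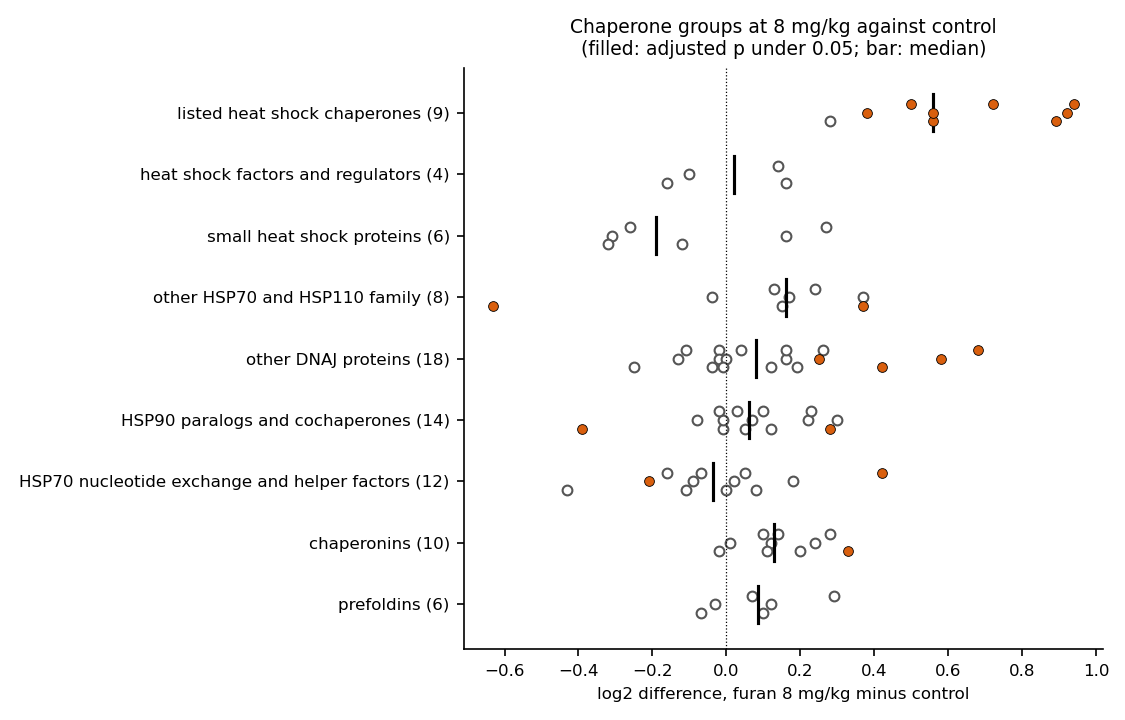
Log2 difference at 8 mg/kg against control for the 9 listed chaperones in the top row and 78 other chaperone genes by list below, 1 point per gene, filled where the adjusted p was under 0.05, with the list median as a bar. The listed genes sit at 0.28 to 0.94 with a median of 0.56; the medians of the other lists run from -0.19 to 0.16.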

How the data were processed

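The 23 scanner files, 1 per mouse, were written by Agilent Feature Extraction 10.7.3.1 per the file headers. The processed signals are deposited intensities from which the extraction software had subtracted background and corrected the dyes, per the file headers, and the median signals and backgrounds are raw deposited intensities. Saturation, outlier and well-above-background columns are 0 or 1 marks that the authors deposited. Their value table, also deposited, gives a linear Cy5 to Cy3 ratio per probe; its scale was checked against the scanner values (r = 0.995 to 0.996 with a loess of uncorrected signals).

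Here log2 of processed Cy5 over Cy3 was loess-normalised array by array (span 0.3, 4 iterations); control and marked spots had weight 0 and were then removed. A probe was kept if well above background in Cy5 on at least 4 arrays of 1 group (25576 of 55681), systematic names were matched to symbols of GRCm38.p6 (26413 probes matched), and the brightest probe stood for its gene. limma 3.58.1 in R 4.3.3 (lmFit, eBayes, 18 residual degrees of freedom) was fitted over all 19899 genes with Benjamini-Hochberg adjustment and a threshold of 0.05, two-sided. The text names all listed genes, from each other chaperone list the called genes or the one with the smallest p, and the 8 genes most like the members' mean. The members, gene lists and tests were chosen with earlier results of these data known. The code was tested on simulated data. Arrays are separate mice, and the number of arrays limits the precision. The series text counts 25 samples, of which 23 arrays were analysed here; probe coordinates are not given because the gene table's build differs from the mm9 of the file headers.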

Additional observations from a re-analysis of the deposited data

Results flagged for a closer look

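Of 45 gene and dose group combinations of 4 or 5 arrays tested for a single array far from the rest, 3 were marked, and chance marks about 1 in 20. Hspa4l in replicate 1 at 1 mg/kg stood at a log2 ratio of -0.43, with the next array at -0.84; this array is on slide 3, on which hepatocyte scores were high, and the part of the slide in the value was not tested. Dnajb1 in replicate 2 at 8 mg/kg stood at -0.95, with the next array at -0.82. Chordc1 in replicate 1 at 2 mg/kg stood at 0.34, with the next array at 0.61; this array is 1 of the 4 rich in pancreatic transcripts, and the part of those transcripts was not tested.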

How the results depend on the processing

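The count of chaperone genes called at 8 mg/kg was 7 to 8 under all 14 alternatives and all 23 fits without 1 array. The members behind it were not always the same. With normexp and with uncorrected median signals the 8 held Dnajb1 in place of Hspa1a. Hsp90aa1, Hsp90ab1, Hspb1, Hspa4l, Hspa8, Hsph1 and Chordc1 kept their calls at 8 mg/kg throughout. The count for the slope was 6 to 9, and the counts at 1 and 2 mg/kg were 0 throughout. Over all genes, 992 to 3023 slopes were called under the alternatives, against 2068 in the main fit. At 4 mg/kg the count of 0 became 1 with slide as a fixed block, 3 with slide as a random block and 1 with median centring, and stayed 0 without any 1 array. Over all genes, the 16 calls at 4 mg/kg became 64, 122 and 54 with these settings, in the same order. For 8 against 4 mg/kg the count of 0 became 1 (Hspb1) with normexp, uncorrected median signals, the deposited table, probes well above background on every array or the mean of probes, 1 (Hspa1a) with slide as a fixed block or without slide 3, and 2 with slide as a random block, and was 0 to 1 without 1 array. The calls over all genes, 41 in the main fit, were 37, 38, 26, 40 and 46 in the settings named for Hspb1, in order. They were 68 with slide as a fixed block, 32 without slide 3 and 120 with slide as a random block. The 11 other chaperone genes called at 8 mg/kg became 6 with scaling between arrays, 5 with normexp, 4 with uncorrected signals, the deposited table or no filter, and 6 with only the groups compared or without slide 3. It was 15 with slide as a fixed block, 16 with slide as a random block, 12 with median centring or probes well above background on every array, 11 with the mean of probes, 10 with the replicate block, 9 without the 4 arrays rich in pancreatic transcripts, and 6 to 12 without 1 array. The calls over all genes at 8 mg/kg changed as well, from 1593 in the main fit to between 791 and 2454 under the alternatives. The cause of these changes was not tested. Hspa1a at 4 mg/kg moved to 0.00 with uncorrected signals, and Dnajb1 for 8 against 4 mg/kg was -0.01 without the 4 arrays rich in pancreatic transcripts.

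Replicate numbers were not taken as a pairing. With group means removed, 7 of 23 arrays correlated best, among arrays of other dose groups, with an array of their own number. The median correlation between arrays of the same number ran from -0.14 for replicate 3 to 0.18 for replicate 4. The furan arrays numbered 4 were all on slide 4, so number and slide cannot be told apart there. With the replicate block 8 chaperone genes were called at 8 mg/kg, 0 at 4 mg/kg, 0 for 8 against 4 mg/kg and 8 for the slope. The calls over all genes in these fits were 1521, 10, 25 and 2030. Over all genes, the 1593 calls at 8 mg/kg became 2454 with slide as a random block, 791 with scaling, 1009 with normexp, 1013 with uncorrected signals, 931 with the deposited table, 930 without a filter and 1039 with only the groups compared. Scaling moved the median of all genes by under 0.1. Hspa1a, near background on most arrays outside 8 mg/kg, is limited by signal.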
